A study of Mus musculus with 12 samples.

Results

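The genes described here are a set of glycolysis and hypoxia response genes, with the lactate transporters included, followed across 4 mouse cancer cell lines. Genes were taken by name: 32 were listed, and a row of the count table was a member when its gene name equalled a listed one. The table held 31 of the 32 (Ldhb was not analysed here), and all 31 passed the filter on low counts, among 12027 tested genes of 12208 in the table. By role they comprise 3 transporters, 8 enzymes of upper glycolysis, 6 of lower glycolysis, 2 enzymes at the pyruvate branch, 4 members of the HIF pathway and 8 hypoxia response genes.

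Glycolysis converts glucose into pyruvate. Pyruvate is either oxidised in mitochondria or reduced to lactate, which leaves the cell with a proton through monocarboxylate transporters. When oxygen is scarce, prolyl hydroxylases of the Egln family stop marking the alpha subunits of hypoxia-inducible factor (HIF) for destruction. HIF then pairs with ARNT and activates genes for glucose uptake, glycolytic enzymes, lactate export, blood vessel growth and mitophagy. In lung cancer cells many of these genes are also transcribed at normal oxygen. The labels give no hypoxia treatment for the cultures described here, and the oxygen level at the cells is not known.

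All libraries came from 393P, mouse lung cancer cells, epithelial and non-metastatic per their labels, grown untreated in RPMI medium with fetal bovine serum. Zeb1 is a zinc-finger repressor of epithelial genes, and the series title concerns its acetylation on a lysine. The mimetic line carried a Zeb1 form labelled mimetic, the deficient line a form labelled deficient, the WT line wild-type Zeb1, and the vector line a GFP vector as the negative control. Both special forms are read here as mutants of the acetylated site and not as a loss of the protein. There were 3 libraries per line, labelled as biological replicates, although the series design text speaks of 2 replicates, and which of the statements holds was not settled. Each Zeb1 form was a single line, so a difference between forms and any other difference between lines cannot be told apart, and p-values cover only variation among the libraries of each line. Every library was a bulk culture, so fewer cells carrying a transcript and less of it per cell cannot be told apart either.

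RNA was counted as tags at the 3′ end of transcripts (QuantSeq), so a level does not scale with transcript length and no division by length was made. Library totals were 24.4 to 27.5 M counts in mimetic, 31 to 33 M in deficient, 28.4 to 35.8 M in WT and 33.3 to 39 M in vector libraries. Levels below are CPM, counts scaled to a common normalised library size, given as mean ± SD with n = 3. The Zeb1 transcript itself was at 228 ± 12 CPM in mimetic, 484 ± 13 in deficient, 244 ± 6.9 in WT and 31.3 ± 2.8 in vector cells. The lines thus differed in counted Zeb1 tags as well as in Zeb1 form, and Zeb1 protein was not measured here. The part of the Zeb1 level in the results that follow was not tested. The epithelial genes Cdh1, Krt7, Krt8, Krt18 and Krt19 were counted in all 12 libraries, and Cdh1 was at 287 ± 21 CPM in mimetic, 445 ± 17 in deficient, 198 ± 4.4 in WT and 670 ± 18 in vector cells. The epithelial marker Cldn7 was near 0, at most 0.485 CPM in any library. Of the mesenchymal genes, Vim was between 3860 and 6000 CPM in every library, Fn1 between 418 and 876 and Cdh2 between 36.9 and 77. The fibroblast genes Col1a1, Col1a2 and Pdgfra reached at most 1.98 CPM, the endothelial genes Pecam1 and Kdr at most 6.83 CPM and the macrophage gene Cd68 at most 8.43 CPM. Epcam, Cldn4, Pdgfrb, Ptprc, Cd3e and Cdh5 were not analysed here. Vector replicate 3 and deficient replicate 3 differed more from the other libraries of their lines than those did from each other, and all libraries were kept.

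Across the 4 lines the set was most often lowest in mimetic cells. In mimetic against deficient cells 20 of the 31 genes were lower and 1 was higher, where 14.9% of all tested genes were lower and 12.6% were higher. A gene was called at an adjusted p under 0.05 by edgeR's quasi-likelihood test over the whole table, and rose or fell is written only of such calls. The median log2 fold change of the 31 genes was -0.25, against 0 over all tested genes. Among the 20 that fell, the sizes ran between 1.11-fold and 1.56-fold lower. When only library size was used for scaling, the split over all genes was 1982 higher and 1509 lower, against 1510 higher and 1789 lower with the scaling used here, and 18 of the 31 genes were lower and 2 higher. The mitochondrially encoded share of counts also moved with the line, at 0.482% to 0.504% in mimetic, 0.698% to 0.722% in deficient, 0.396% to 0.426% in WT and 0.814% to 0.998% in vector libraries. With those genes left out of the fit, 20 of the 31 genes were again lower and 1 higher in mimetic against deficient cells.

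Against WT, mimetic cells had 16 of the 31 genes lower and 7 higher, where 21.8% of all tested genes were lower and 23.1% were higher, and the median log2 fold change of the 31 was -0.15. With library size alone the split over all genes was 3506 higher and 1980 lower, against 2780 higher and 2618 lower with the scaling used, and 14 of the 31 were lower and 7 higher. Leaving out 1 library at a time left 4 to 6 genes higher, with 4 of them without mimetic replicate 1, without WT replicate 1 or without WT replicate 2. Deficient cells against WT turned the other way, with 15 of the 31 genes higher and 5 lower, where 27.5% of all tested genes were higher and 26.3% were lower, and a median of 0.08.

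Each Zeb1 line was also set against the same 3 vector libraries, so these comparisons share their control. WT cells had 9 of the 31 genes higher and 14 lower, against 31% higher and 33.6% lower over all tested genes. Deficient cells had 11 higher and 11 lower, against 28.4% higher and 29.8% lower over all tested genes. Mimetic cells had 3 higher and 20 lower, against 28.6% higher and 30.9% lower over all tested genes, and a median log2 fold change of -0.23. In WT and deficient cells the shares of the set were thus near those of the whole table or only moderately above them, and in mimetic cells 20 of 31 genes lower stood further from it. Without vector replicate 3, in which the 31 genes held 1.3% of counts against 1.19% and 1.2% in vector replicates 2 and 1, the counts were 9 higher and 14 lower in WT, 12 and 11 in deficient and 3 and 20 in mimetic cells. With library size alone, mimetic against vector gave 4334 genes higher and 3004 lower over the table, against 3438 and 3720, and 4 of the 31 higher and 18 lower.

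**Figure D1:**
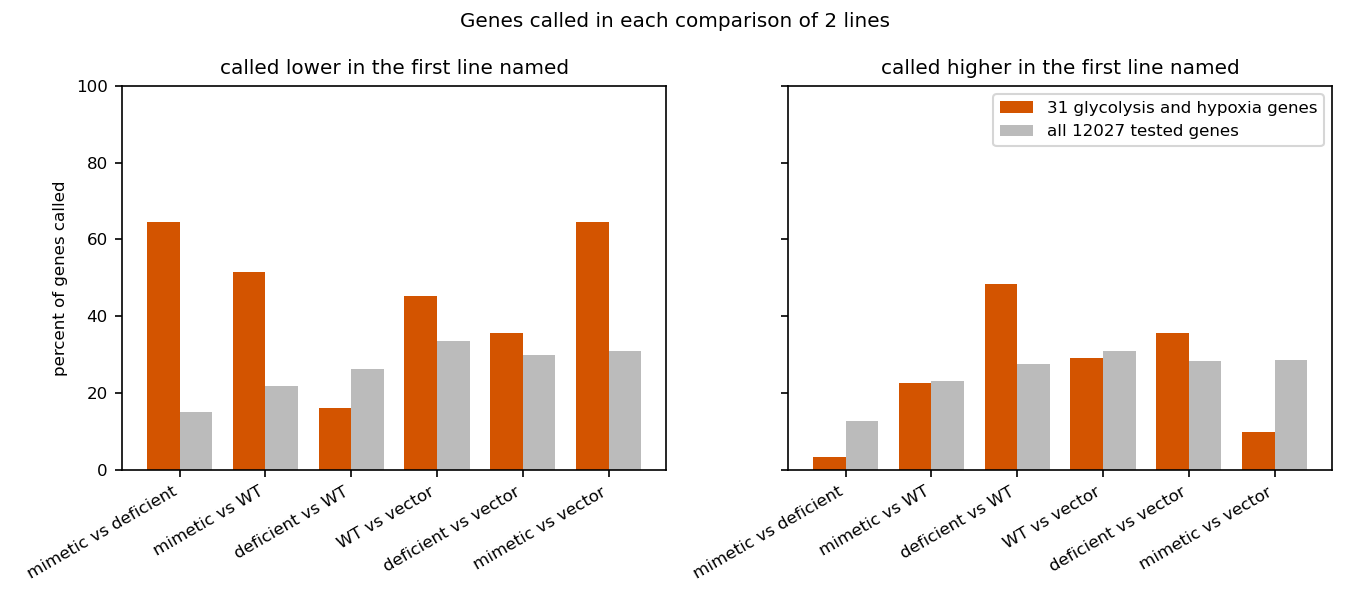
Percent of genes called lower (left panel) and higher (right panel) at an adjusted p under 0.05 in the first line of each of 6 comparisons. Orange bars are the 31 glycolysis and hypoxia genes, grey bars all 12027 tested genes; 20 of the 31 were lower in mimetic against deficient and in mimetic against vector cells.

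The 4 line means of each gene were also ranked. Mimetic cells held the lowest mean for 17 of the 31 genes (54.8%) and the highest for none (0 of 31), where they held the lowest for 16.7% and the highest for 17.6% of all tested genes. Vector cells held the highest mean for 13 genes (41.9%), deficient cells for 12 (38.7%) and WT cells for 6 (19.4%). Over all tested genes the shares were 34.3% for vector, 20% for deficient and 28% for WT cells. Most differences were small: for 19 of the 31 genes the highest line mean was less than 1.5 times the lowest, and apart from Slc16a3 the largest such ratio was 2.03. The 31 genes together took 1.03% to 1.04% of counts in mimetic, 1.2% to 1.21% in deficient, 1.14% to 1.17% in WT and 1.19% to 1.3% in vector libraries. Pkm alone took between 0.358% (mimetic replicate 2) and 0.481% (vector replicate 3) of counts.

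**Figure D2:**
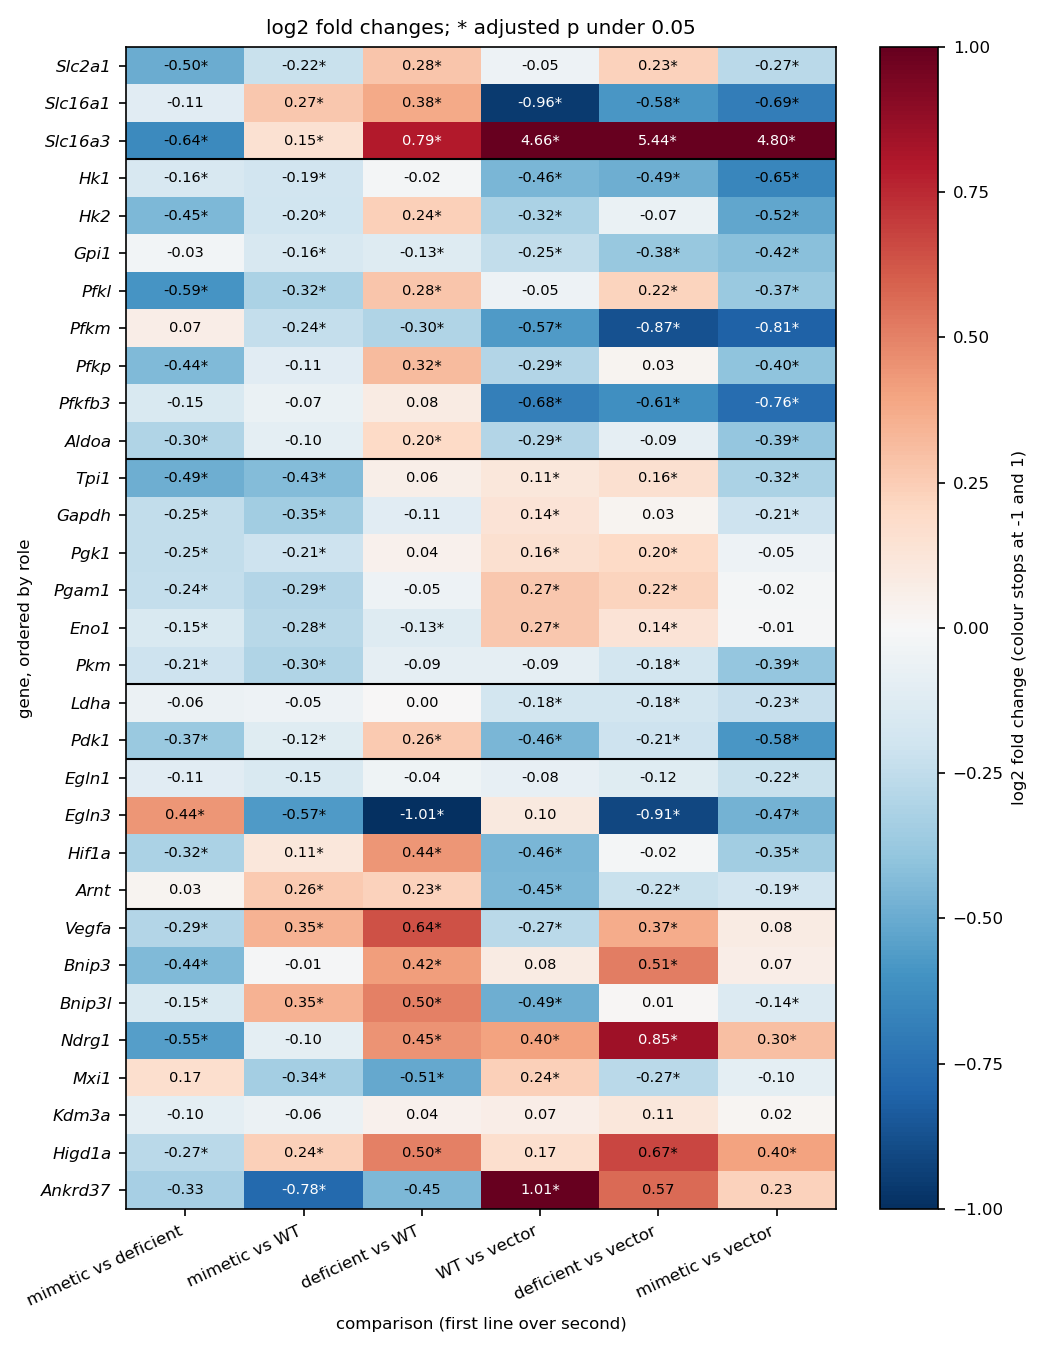
Log2 fold changes of the 31 genes, in rows by role, in 6 comparisons, in columns, with the first line named over the second; colour stops at -1 and 1, and an asterisk marks an adjusted p under 0.05. The first column is blue for most genes, and Slc16a3 is far above every other gene in the 3 columns against vector, with values of 4.66, 5.44 and 4.80.

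The lactate transporters gave the clearest difference of the set. Slc16a3, the transporter MCT4 that exports lactate from glycolytic cells, was counted at 81.3, 72.4 and 76.9 CPM in the mimetic libraries, 116, 119 and 124 in deficient, 68.8, 69.6 and 70 in WT, and 2.72, 3.14 and 2.43 in vector libraries. The vector values rest on 90, 102 and 92 counts. No Zeb1 library overlapped a vector library. The level rose 27.9-fold in mimetic (log2 fold change 4.80 ± 0.08 SE, edgeR adjusted p = 2.84e-20), 43.5-fold in deficient (5.44 ± 0.079, adjusted p = 1.31e-21) and 25.2-fold in WT against vector cells (4.66 ± 0.08, adjusted p = 1.31e-20).

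Among the Zeb1 lines, Slc16a3 was 1.56-fold lower in mimetic than in deficient cells (adjusted p = 2.51e-08) and 1.72-fold higher in deficient than in WT cells (adjusted p = 3.03e-10). The order was therefore deficient, mimetic, WT and vector. Mimetic and WT were the neighbours closest to each other: the mimetic level was 1.11-fold higher (adjusted p = 0.0423), and this call was lost without mimetic replicate 1 or 3 or any 1 of the 3 WT replicates (adjusted p = 0.0859 to 0.206). It was lost with RLE size factors as well (adjusted p = 0.0526).

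Slc16a1, the transporter MCT1 that moves lactate in either direction, ran opposite to it between the Zeb1 lines and vector. Its libraries were at 255, 250 and 254 CPM in mimetic, 282, 277 and 259 in deficient, 212, 206 and 211 in WT and 401, 399 and 422 in vector cells. Every vector library lay above every Zeb1 library. The level fell 1.61-fold in mimetic (adjusted p = 1.12e-11), 1.49-fold in deficient (adjusted p = 1.92e-10) and 1.94-fold in WT against vector cells (adjusted p = 3.69e-14). Between mimetic and deficient cells the difference did not pass (log2 fold change -0.11 ± 0.041, adjusted p = 0.0588); it passed without deficient replicate 3 (adjusted p = 0.0131) and when genes had to reach 5 CPM in 3 libraries (adjusted p = 0.037).

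Of the tags of both transporters together, Slc16a3 made up 23.3% ± 0.87 in mimetic, 30.5% ± 1.6 in deficient, 24.9% ± 0.36 in WT and 0.675% ± 0.1 in vector cells. The sum of the pair was 330 ± 6.9 CPM in mimetic, 392 ± 7.9 in deficient, 279 ± 3 in WT and 410 ± 13 in vector cells. The Zeb1 lines thus had no larger summed level than vector cells and a different makeup. Slc2a1, the glucose transporter GLUT1, stood at 54.7, 50 and 59.5 CPM in mimetic, 70.3, 79.3 and 83 in deficient, 67.9, 59.2 and 64.1 in WT and 62.6, 67.4 and 67.6 in vector libraries. Mimetic and deficient libraries did not overlap, and the level was 1.42-fold lower in mimetic cells (adjusted p = 1.9e-05). It was 1.18-fold higher in deficient (adjusted p = 0.00702) and 1.2-fold lower in mimetic than in vector cells (adjusted p = 0.00311). Against WT the mimetic level was 1.16-fold lower (adjusted p = 0.0178), a call lost without mimetic replicate 2 (adjusted p = 0.115) or WT replicate 1 (adjusted p = 0.0762) and with library size scaling (adjusted p = 0.0736).

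The stretches before the starts of both transporter genes are shown because these genes moved in opposite directions between the Zeb1 lines and vector. Each runs 5′ to 3′ on the gene's strand within the 250 bases before the RefSeq start (GRCm38.p6) and leaves out bases annotated as exon. The Slc16a3 stretch lies before the RefSeq start but inside the gene as annotated in GENCODE M21, which begins at base 120948480 of the chromosome. Capitals mark the cores of the hypoxia response element, ACGTG or GCGTG on either strand; where an ACGTG core lies on both strands it reads CACGTG, an E-box.
Slc16a3, chr11:120948817-120949052, plus strand: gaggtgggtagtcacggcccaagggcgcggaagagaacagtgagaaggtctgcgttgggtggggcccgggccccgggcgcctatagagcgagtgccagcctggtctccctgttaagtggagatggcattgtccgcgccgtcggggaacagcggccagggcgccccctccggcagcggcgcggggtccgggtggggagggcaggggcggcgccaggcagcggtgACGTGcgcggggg
Slc16a1, chr3:104638414-104638663, plus strand: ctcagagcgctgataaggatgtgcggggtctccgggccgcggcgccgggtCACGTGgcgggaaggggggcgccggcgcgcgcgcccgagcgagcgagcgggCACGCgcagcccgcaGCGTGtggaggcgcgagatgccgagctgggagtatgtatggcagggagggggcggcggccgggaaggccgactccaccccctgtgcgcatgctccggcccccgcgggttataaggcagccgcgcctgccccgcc

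The Slc16a3 stretch holds 1 core, at -27, where a position is that of the first printed base of the core, counted back from the start. Another ACGTG core of the Slc16a3 window lies at -14 and is not printed, since those bases are annotated as exon. In Slc16a1 the E-box at -200 is read as an ACGTG core on each strand, and GCGTG cores lie at -149 and -134. Neither window holds CAGGTG, an E-box that ZEB1 binds. A motif match is a description of the letters and says nothing about binding in these cells.

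**Figure D3:**
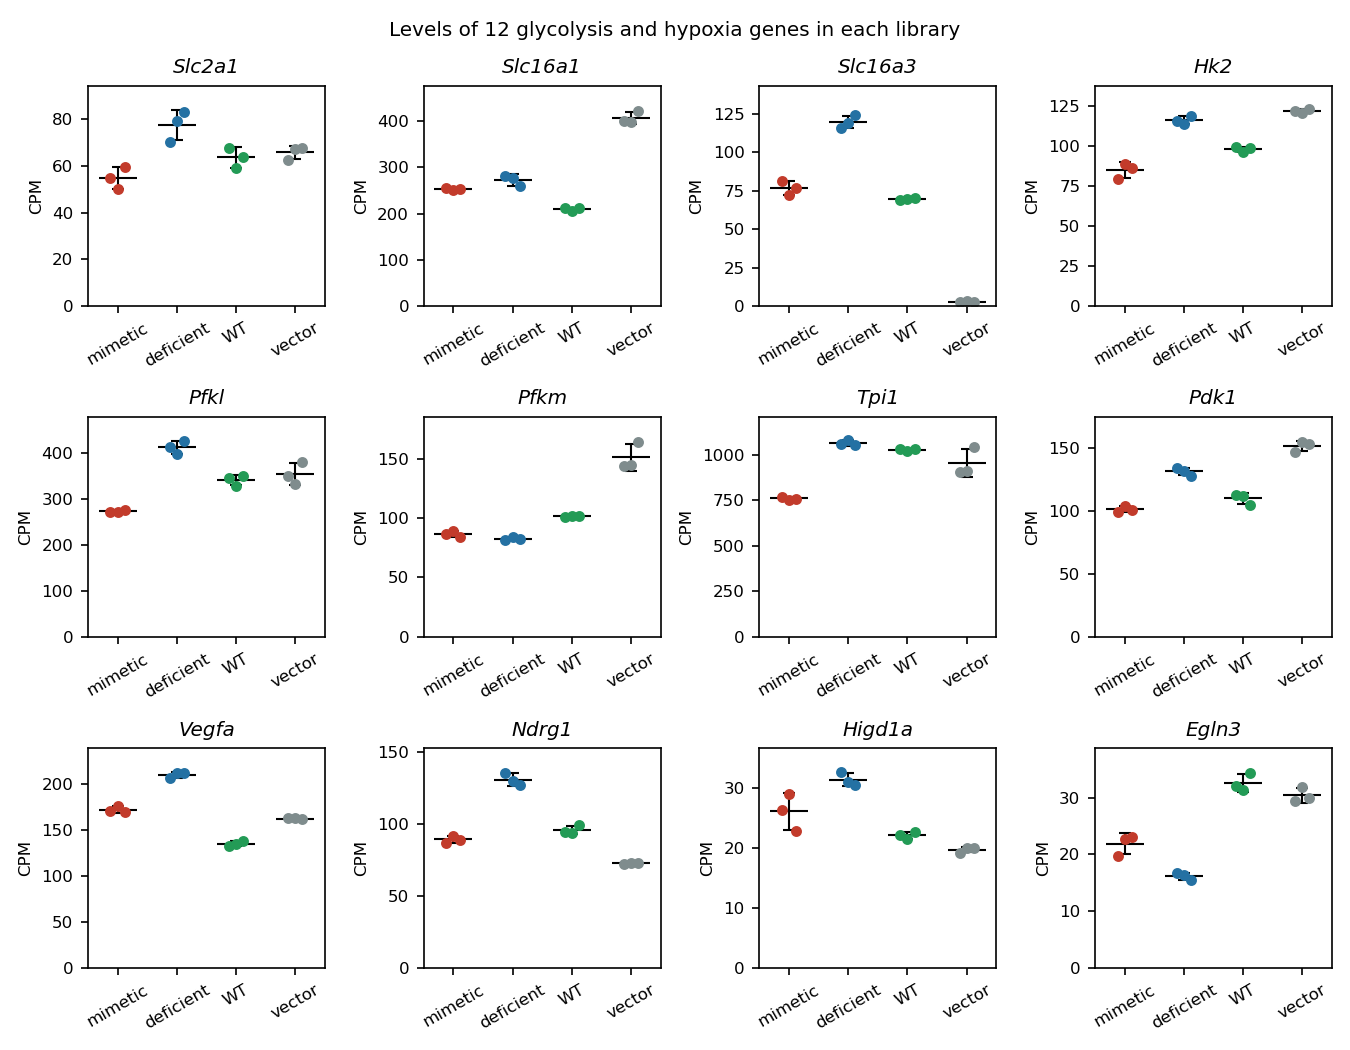
Level in CPM (linear axis from 0) of 12 genes in each of the 3 libraries of the mimetic, deficient, WT and vector lines; points are libraries, the horizontal line is the mean and the bars are ± 1 SD (n = 3). Slc16a3 lies between 2.43 and 3.14 CPM in vector and at 68.8 CPM or more in every Zeb1 library, while Slc16a1 is highest in vector; Egln3 is lowest in deficient cells, with every mimetic library above every deficient one.

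Upper glycolysis, the steps that phosphorylate glucose and split it, was lower in mimetic cells. Of the 8 genes, 5 fell in mimetic against deficient cells and none (0) rose, where 14.9% of all tested genes fell and 12.6% rose. Against vector, 8 of 8 were lower in mimetic cells, where 30.9% of all tested genes were lower. Summed, the 8 genes stood at 2050 ± 17 CPM in mimetic, 2480 ± 15 in deficient, 2290 ± 42 in WT and 2810 ± 160 in vector cells. In WT cells 7 of the 8 were lower than in vector and the other, Pfkl, did not pass (adjusted p = 0.326). Over all tested genes 33.6% were lower in WT against vector cells.

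Hexokinases catalyse the first step. Hk2, the isoform linked to HIF and to tumour glycolysis, was at 79.6, 89.1 and 86.5 CPM in mimetic, 116, 114 and 119 in deficient, 99.3, 96.2 and 98.7 in WT and 122, 121 and 123 in vector libraries. All 3 mimetic libraries were below the 9 others. The level was 1.36-fold lower in mimetic than in deficient (log2 fold change -0.45 ± 0.046, adjusted p = 2.65e-07), 1.15-fold lower than in WT (adjusted p = 0.00125) and 1.43-fold lower than in vector cells (adjusted p = 5.75e-09). Deficient and vector cells did not pass the test for Hk2 (adjusted p = 0.186).

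Hk1, the constitutive hexokinase, was at 270, 273 and 280 CPM in mimetic, 303, 297 and 320 in deficient, 309, 309 and 318 in WT and 440, 404 and 444 in vector libraries. The vector libraries stood above all others. The level fell 1.57-fold in mimetic, 1.4-fold in deficient and 1.38-fold in WT against vector cells (adjusted p = 6.87e-11, 6.54e-09 and 9.17e-09), and 1.12-fold in mimetic against deficient cells (adjusted p = 0.00771).

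Hk2 is shown because its window holds a pair of ACGTG cores, both on the strand opposite to the gene, at -226 and -52.
Hk2, chr6:82774455-82774704, minus strand: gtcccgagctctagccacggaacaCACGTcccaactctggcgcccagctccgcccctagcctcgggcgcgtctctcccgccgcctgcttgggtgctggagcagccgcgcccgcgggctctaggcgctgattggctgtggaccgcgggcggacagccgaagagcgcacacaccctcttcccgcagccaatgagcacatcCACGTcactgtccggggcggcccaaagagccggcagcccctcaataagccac

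Phosphofructokinase commits the sugar to glycolysis, and its 3 isoforms did not move alike. Pfkl, the liver-type isoform, was at 273, 273 and 277 CPM in mimetic, 414, 399 and 428 in deficient, 346, 329 and 350 in WT and 350, 333 and 381 in vector libraries. Mimetic libraries were the lowest and deficient libraries the highest, with no overlap between lines except WT with vector. The level was 1.51-fold lower in mimetic than in deficient cells (log2 fold change -0.59 ± 0.047, adjusted p = 5.6e-09).

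Pfkm, the muscle-type isoform, was at 86.8, 88.8 and 83.9 CPM in mimetic, 81.8, 84.2 and 82 in deficient, 101, 102 and 102 in WT and 144, 145 and 164 in vector libraries. Mimetic and deficient libraries overlapped and the difference did not pass (log2 fold change 0.07 ± 0.051, adjusted p = 0.371), while every Zeb1 line was below vector, by 1.75-fold in mimetic, 1.83-fold in deficient and 1.48-fold in WT cells (adjusted p = 2.11e-11, 7.14e-12 and 3e-09). Pfkp, the platelet-type isoform, averaged 50.2 ± 2 CPM in mimetic, 67.9 ± 2.3 in deficient, 54.3 ± 1.9 in WT and 66.4 ± 5 in vector cells, and was 1.35-fold lower in mimetic than in deficient cells (adjusted p = 1.21e-05). Pfkl made up 66.8% ± 0.76 of the isoforms' tags in mimetic, 73.3% ± 1 in deficient, 68.6% ± 0.94 in WT and 62% ± 0.82 in vector cells. Pfkm made up 21% ± 0.54 in mimetic, 14.6% ± 0.54 in deficient, 20.5% ± 0.43 in WT and 26.4% ± 0.46 in vector cells, so its share was lowest where that of Pfkl was highest. The isoforms' sum was 411 ± 3.1 CPM in mimetic, 564 ± 12 in deficient, 498 ± 9.4 in WT and 572 ± 39 in vector cells.

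The other enzymes of upper glycolysis behaved less uniformly between the mutants. Aldoa, which splits fructose bisphosphate, averaged 905 ± 12 CPM in mimetic, 1110 ± 28 in deficient, 968 ± 28 in WT and 1180 ± 88 in vector cells and was 1.23-fold lower in mimetic than in deficient cells (adjusted p = 5.81e-05). Gpi1, the glucose phosphate isomerase, averaged 363 ± 16 CPM in mimetic, 371 ± 8.9 in deficient, 406 ± 9 in WT and 484 ± 21 in vector cells. Its mimetic and deficient levels were not called different (adjusted p = 0.626), and all 3 Zeb1 lines were lower than vector. Pfkfb3, which makes an activator of phosphofructokinase, was low at 8 ± 0.88 CPM in mimetic, 8.86 ± 1.7 in deficient, 8.4 ± 0.36 in WT and 13.5 ± 2.2 in vector cells. It was 1.69-fold lower in mimetic, 1.52-fold in deficient and 1.6-fold in WT than in vector cells (adjusted p = 0.000101, 0.000743 and 0.000209).

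Lower glycolysis, the steps that earn ATP, separated mimetic cells from both other Zeb1 lines. All 6 enzymes fell in mimetic cells, both against deficient and against WT cells. Of all tested genes 14.9% fell against deficient and 21.8% against WT cells. The sum of the 6 enzymes was 5670 ± 49 CPM in mimetic, 6720 ± 67 in deficient, 7060 ± 120 in WT and 7030 ± 470 in vector cells. Pkm alone held most of each sum, at 3530 ± 46 CPM in mimetic, 4080 ± 32 in deficient, 4340 ± 85 in WT and 4620 ± 300 in vector cells. Against vector, WT cells had 5 of the 6 higher and none (0) lower, deficient cells 4 higher and 1 lower, and mimetic cells none (0) higher and 3 lower. Of all tested genes 31% were higher and 33.6% lower in WT, 28.4% and 29.8% in deficient, and 28.6% and 30.9% in mimetic cells. The WT count of 5 rests on single libraries: 3 of the 6 were higher without WT replicate 1, vector replicate 1 or vector replicate 2, where Tpi1 and Gapdh were lost. The 1 lower gene of deficient cells against vector was Pkm.

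Tpi1, the triose phosphate isomerase, had the largest difference of the 6. It was at 770, 749 and 759 CPM in mimetic, 1060, 1080 and 1050 in deficient, 1030, 1020 and 1030 in WT and 904, 911 and 1040 in vector libraries. All mimetic libraries were below all others, and vector replicate 3 lay above the WT libraries and below the deficient ones. The level fell 1.4-fold in mimetic against deficient cells (log2 fold change -0.49 ± 0.046, adjusted p = 6.65e-08), 1.35-fold against WT (adjusted p = 1.93e-07) and 1.25-fold against vector (adjusted p = 3.62e-06). In WT against vector cells it was 1.08-fold higher (adjusted p = 0.0445), a call lost without any 1 of the WT replicates 1, 2 and 3 or vector replicates 1 and 2 (adjusted p = 0.0647 to 0.21), and when only the 2 lines were fitted (adjusted p = 0.061).

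Gapdh, often used to scale other genes in such cells, was at 475, 474 and 537 CPM in mimetic, 567, 579 and 618 in deficient, 650, 620 and 626 in WT and 564, 557 and 603 in vector libraries. It was 1.19-fold lower in mimetic than in deficient (adjusted p = 0.000892), 1.28-fold lower than in WT (adjusted p = 9.71e-06) and 1.16-fold lower than in vector cells (adjusted p = 0.00103). In WT against vector it was 1.1-fold higher (adjusted p = 0.0202), which was lost without WT replicate 1 (adjusted p = 0.066), vector replicate 1 (adjusted p = 0.0693) or vector replicate 2 (adjusted p = 0.067). Gapdh is thus a member that itself differs between these lines.

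Pkm, a pyruvate kinase gene, was the most abundant gene of the set. It averaged 3530 ± 46 CPM in mimetic, 4080 ± 32 in deficient, 4340 ± 85 in WT and 4620 ± 300 in vector cells. It was 1.16-fold lower in mimetic than in deficient cells (adjusted p = 0.000941), and its spliced forms are not told apart by these tags. Its WT and vector levels were not called different (log2 fold change -0.09 ± 0.043, adjusted p = 0.074), but WT was called lower without vector replicate 1 (adjusted p = 0.0445), without vector replicate 2 (adjusted p = 0.0321) and under limma-voom (adjusted p = 0.0411). Pgk1, which makes the first ATP of these steps, averaged 90.7 ± 1.9 CPM in mimetic, 108 ± 4.5 in deficient, 105 ± 0.73 in WT and 94 ± 4.6 in vector cells. Pgam1, the phosphoglycerate mutase, averaged 62.1 ± 4.2 CPM in mimetic, 73.4 ± 1.1 in deficient, 76.1 ± 1.3 in WT and 63.1 ± 4.4 in vector cells. Both were lower in mimetic than in deficient cells, by 1.19-fold and 1.18-fold (adjusted p = 0.000425 and 0.00404).

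Eno1, the enolase, averaged 731 ± 18 CPM in mimetic, 810 ± 22 in deficient, 888 ± 19 in WT and 737 ± 65 in vector cells. Its 1.11-fold fall in mimetic against deficient cells (adjusted p = 0.0313) was lost without mimetic replicate 1 (adjusted p = 0.112), mimetic replicate 3 (adjusted p = 0.0786) or deficient replicate 2 (adjusted p = 0.123), and under library size scaling (adjusted p = 0.0681). The 1.1-fold fall in deficient against WT cells (adjusted p = 0.0293) was lost without deficient replicate 1 (adjusted p = 0.092), deficient replicate 3 (adjusted p = 0.0565) or WT replicate 1 (adjusted p = 0.0622), with library size scaling (adjusted p = 0.0708) and with the 5 CPM filter (adjusted p = 0.0665). The 1.1-fold rise in deficient against vector cells (adjusted p = 0.0231) was lost without deficient replicate 2 (adjusted p = 0.097), vector replicate 1 (adjusted p = 0.132) or vector replicate 2 (adjusted p = 0.113), and when only the 2 lines were fitted (adjusted p = 0.0786). Eno1 has a near-identical copy in the mouse genome, and Gapdh and other enzymes have processed pseudogenes, so their tags are uncertain to that extent.

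At the pyruvate branch the 2 genes differed. Ldha, which reduces pyruvate to lactate, was at 850, 836 and 844 CPM in mimetic, 890, 886 and 857 in deficient, 872, 889 and 864 in WT and 932, 968 and 1080 in vector libraries. It was not called between any pair of Zeb1 lines (adjusted p = 0.376 in mimetic against deficient, 0.358 in mimetic against WT and 0.939 in deficient against WT). It was lower in all 3 than in vector cells, by 1.18-fold in mimetic, 1.13-fold in deficient and 1.13-fold in WT (adjusted p = 0.000154, 0.00226 and 0.00153).

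Pdk1, the kinase that shuts pyruvate out of the citrate cycle, was at 99.3, 104 and 101 CPM in mimetic, 134, 132 and 128 in deficient, 113, 112 and 105 in WT and 147, 155 and 153 in vector libraries. The 4 lines did not overlap, in the order vector, deficient, WT and mimetic. The level was 1.3-fold lower in mimetic than in deficient (log2 fold change -0.37 ± 0.044, adjusted p = 1.55e-06) and 1.5-fold lower than in vector cells (adjusted p = 4.53e-10). The step between the neighbours mimetic and WT was 1.09-fold (adjusted p = 0.0323) and was lost without mimetic replicate 1 (adjusted p = 0.105), mimetic replicate 3 (adjusted p = 0.0733), WT replicate 1 (adjusted p = 0.0991) or WT replicate 2 (adjusted p = 0.0834), with library size scaling (adjusted p = 0.248) and with the 5 CPM filter (adjusted p = 0.0543).

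The Ldha window is printed because, with Bnip3, it holds the most cores of the set: 2 E-boxes that each carry an ACGTG core on both strands, and 1 further core at -34. It lies inside the gene as annotated in GENCODE M21, which begins at base 46841475 of the chromosome.
Ldha, chr7:46845554-46845803, plus strand: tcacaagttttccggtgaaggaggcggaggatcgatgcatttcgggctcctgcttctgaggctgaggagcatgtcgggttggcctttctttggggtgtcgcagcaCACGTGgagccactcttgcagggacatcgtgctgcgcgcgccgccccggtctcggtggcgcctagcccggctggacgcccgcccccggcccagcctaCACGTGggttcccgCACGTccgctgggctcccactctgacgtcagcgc

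**Figure D4:**
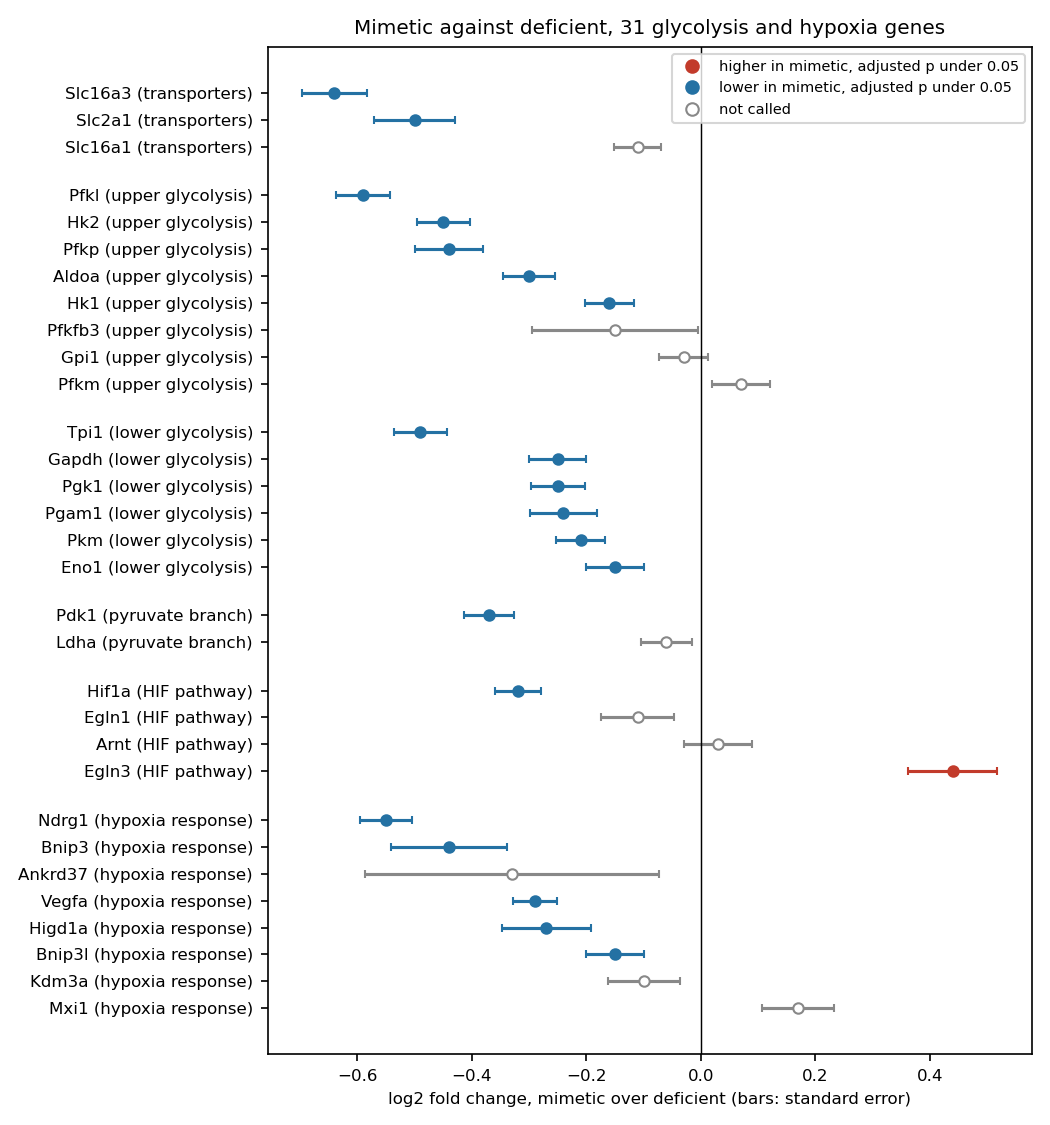
Log2 fold change, mimetic over deficient, of the 31 genes grouped by role, with bars of ± 1 standard error from the edgeR fit. Filled blue points are lower and the filled red point is higher in mimetic cells at an adjusted p under 0.05, and open points did not pass; Slc16a3 at -0.64 and Pfkl at -0.59 lie farthest left, and Egln3 at 0.44 is the red point.

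In the HIF pathway 1 gene fell and 1 rose in mimetic against deficient cells, and all 4 fell in mimetic against vector cells. Of all tested genes 14.9% fell and 12.6% rose in mimetic against deficient cells, and 30.9% fell in mimetic against vector cells. Hif1a, the oxygen-regulated subunit, was at 358, 356 and 345 CPM in mimetic, 459, 445 and 422 in deficient, 326, 323 and 330 in WT and 441, 464 and 443 in vector libraries. Mimetic and WT libraries were all below deficient and vector libraries. Its transcript fell 1.25-fold in mimetic against deficient (adjusted p = 3.21e-06) and 1.27-fold against vector cells (adjusted p = 2.56e-07), and deficient and vector cells did not pass the test (adjusted p = 0.643). The 1.08-fold higher level in mimetic than in WT cells (adjusted p = 0.0254) was lost without any 1 of mimetic replicates 1 and 2 and WT replicates 1, 2 and 3 (adjusted p = 0.0676 to 0.11). HIF activity is set mainly by the stability of the protein, which was not measured here.

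Arnt, the constant partner of HIF, averaged 67.5 ± 3.4 CPM in mimetic, 66 ± 3.7 in deficient, 56.5 ± 2.8 in WT and 77 ± 4 in vector cells. Mimetic and deficient cells were not called different (adjusted p = 0.729). All 3 Zeb1 lines were lower than vector, and the 1.14-fold difference of mimetic cells (adjusted p = 0.00952) was lost without vector replicate 1 (adjusted p = 0.0581) and with library size scaling (adjusted p = 0.102). Egln1, the main oxygen-sensing hydroxylase, averaged 72 ± 3 CPM in mimetic, 77.6 ± 5.7 in deficient, 79.8 ± 3.2 in WT and 84 ± 6.8 in vector cells, and of the 6 comparisons mimetic against vector passed (1.17-fold lower, adjusted p = 0.00476). Deficient against vector was also called lower without vector replicate 2 (adjusted p = 0.0386), and mimetic against WT when only those 2 lines were fitted (adjusted p = 0.0147).

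Egln3, a hydroxylase that is itself a HIF target, was the 1 gene of the set that rose in mimetic against deficient cells. It was at 19.8, 22.8 and 23.1 CPM in mimetic, 16.7, 16.3 and 15.5 in deficient, 32, 31.3 and 34.3 in WT and 29.4, 31.9 and 29.9 in vector libraries. Every deficient library was below every mimetic library, and both mutants were below WT and vector. The level was 1.36-fold higher in mimetic than in deficient cells (log2 fold change 0.44 ± 0.078, adjusted p = 0.000257). It was 2.01-fold lower in deficient than in WT (log2 fold change -1.01 ± 0.076, adjusted p = 7.98e-10) and 1.48-fold lower in mimetic than in WT cells (adjusted p = 4.16e-06). Egln3 made up 23.3% ± 2.1 of the tags of the 2 hydroxylases in mimetic, 17.3% ± 0.59 in deficient, 29% ± 1 in WT and 26.6% ± 2.2 in vector cells. Its window, shown as that of the gene with the opposite sign in mimetic against deficient cells, holds 1 core at -229, which is an ACGTG.
Egln3, chr12:54203875-54204124, minus strand: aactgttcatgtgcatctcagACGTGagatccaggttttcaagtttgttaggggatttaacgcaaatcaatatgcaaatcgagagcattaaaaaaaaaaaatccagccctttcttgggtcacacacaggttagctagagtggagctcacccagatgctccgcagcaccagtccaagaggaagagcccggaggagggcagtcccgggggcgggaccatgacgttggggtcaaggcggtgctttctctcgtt

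Of the 8 hypoxia response genes, 5 fell in mimetic against deficient cells and none (0) rose. Of all tested genes 14.9% fell and 12.6% rose in that comparison. Without mimetic replicate 3 or deficient replicate 1, 3 of the 8 fell and 1 rose: Bnip3l and Higd1a were lost and Mxi1 passed as higher. Mxi1 also passed as higher with RLE size factors, library size only, DESeq2 and the replicate block. In deficient against WT cells 5 of the 8 rose and 1 fell, where 27.5% of all tested genes rose and 26.3% fell. Ankrd37 was another that fell without deficient replicate 2 (adjusted p = 0.0471). The sum of the 8 genes was 547 ± 16 CPM in mimetic, 647 ± 3.3 in deficient, 513 ± 2.8 in WT and 528 ± 5.2 in vector cells, so deficient cells were highest. In mimetic against WT cells 3 of the 8 were higher and 2 lower, where 23.1% of all tested genes were higher and 21.8% lower. Without mimetic replicate 1 or 2, the count was 2 higher and 1 lower.

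Vegfa, the growth factor for blood vessels, was at 171, 177 and 170 CPM in mimetic, 207, 212 and 213 in deficient, 133, 135 and 138 in WT and 163, 163 and 162 in vector libraries. The 4 lines did not overlap. It was 1.22-fold lower in mimetic than in deficient cells (log2 fold change -0.29 ± 0.038, adjusted p = 8.3e-06), 1.55-fold higher in deficient than in WT (adjusted p = 2.27e-11) and 1.27-fold higher in mimetic than in WT cells (adjusted p = 3.82e-07). Mimetic against vector did not pass (adjusted p = 0.0708), but mimetic was called higher with library size scaling (adjusted p = 0.00144) and with the 5 CPM filter (adjusted p = 0.0238).

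Ndrg1, a stress and hypoxia gene linked to differentiation, was at 87.2, 91.8 and 89.3 CPM in mimetic, 136, 130 and 127 in deficient, 94.4, 94.1 and 99.3 in WT and 72.5, 72.8 and 73.2 in vector libraries. Deficient libraries were the highest and vector libraries the lowest. Levels were 1.47-fold lower in mimetic than in deficient cells (log2 fold change -0.55 ± 0.045, adjusted p = 7.56e-09), and rose against vector by 1.23-fold in mimetic, 1.8-fold in deficient and 1.32-fold in WT cells (adjusted p = 1.08e-05, 1.95e-12 and 1.64e-07).

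Bnip3 and Bnip3l are mitophagy receptors. Bnip3 was at 12, 13.9 and 14.1 CPM in mimetic, 18.8, 17 and 18.4 in deficient, 13.9, 14.5 and 12 in WT and 14.2, 11.6 and 12.4 in vector libraries. Deficient libraries stood above the other 9, which overlapped, and the level was 1.35-fold lower in mimetic than in deficient cells (adjusted p = 0.00272). Bnip3l was at 101, 102 and 93.9 CPM in mimetic, 111, 115 and 104 in deficient, 74.4, 79.9 and 78 in WT and 108, 113 and 107 in vector libraries.

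WT was the low line for Bnip3l. It rose 1.28-fold in mimetic (adjusted p = 1.05e-05) and 1.42-fold in deficient against WT cells (adjusted p = 4.7e-08), and fell 1.41-fold in WT against vector cells (adjusted p = 3.03e-08). Its 1.11-fold fall in mimetic against deficient cells (adjusted p = 0.0278) was lost without mimetic replicate 3 (adjusted p = 0.135), deficient replicate 1 (adjusted p = 0.0759) or deficient replicate 2 (adjusted p = 0.134), and with library size scaling (adjusted p = 0.0705). Its 1.1-fold fall in mimetic against vector cells (adjusted p = 0.0179) was lost without mimetic replicate 3 (adjusted p = 0.102) or vector replicate 2 (adjusted p = 0.0668), and with library size scaling (adjusted p = 0.241).

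Higd1a, a mitochondrial protein induced in hypoxia, was at 26.3, 29 and 22.8 CPM in mimetic, 32.6, 31 and 30.4 in deficient, 22.1, 21.5 and 22.7 in WT and 19.2, 19.9 and 20 in vector libraries. Deficient libraries were the highest and mimetic libraries were spread between deficient and WT. The level rose 1.59-fold in deficient (adjusted p = 3.82e-07) and 1.32-fold in mimetic against vector cells (adjusted p = 0.000217). Its 1.2-fold fall in mimetic against deficient cells (adjusted p = 0.0149) was lost without mimetic replicate 3 (adjusted p = 0.107) or deficient replicate 1 (adjusted p = 0.0618). Its 1.18-fold rise in mimetic against WT (adjusted p = 0.0206) was lost without mimetic replicate 1 or 2 or WT replicate 1 or 2 (adjusted p = 0.0556 to 0.154).

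Mxi1, a MAX partner that opposes MYC, averaged 62.9 ± 4.7 CPM in mimetic, 56 ± 4.3 in deficient, 79.7 ± 2.5 in WT and 67.6 ± 1.5 in vector cells. It was 1.27-fold lower in mimetic and 1.42-fold lower in deficient than in WT cells (adjusted p = 0.000145 and 7.64e-07). In mimetic against deficient cells it was just outside the threshold (log2 fold change 0.17 ± 0.063, adjusted p = 0.0515) and passed without mimetic replicate 3 (adjusted p = 0.0249) or deficient replicate 1 (adjusted p = 0.0444). Kdm3a, a histone demethylase, had the flattest profile of the set, at 82.6 ± 3.7 CPM in mimetic, 88.4 ± 8.6 in deficient, 85.9 ± 2.9 in WT and 81.7 ± 4.5 in vector cells, and no comparison passed with the scaling and libraries used. Deficient against vector passed without deficient replicate 2 (adjusted p = 0.0477) and with library size scaling (adjusted p = 0.0361).

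Ankrd37 was the least abundant gene, at 1.73 ± 0.57 CPM in mimetic, 2.19 ± 0.54 in deficient, 2.99 ± 0.37 in WT and 1.47 ± 0.26 in vector cells, with 35 to 113 counts in a library. It was 2.02-fold higher in WT than in vector cells (adjusted p = 0.00129). The 1.72-fold lower level in mimetic than in WT cells (adjusted p = 0.0152) was lost without mimetic replicate 1 (adjusted p = 0.0585) or mimetic replicate 2 (adjusted p = 0.08). Mimetic against deficient did not pass at this depth (adjusted p = 0.369).

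Of 29 of the 31 genes a RefSeq window of 250 bases before the start could be matched, 1 per gene. Bnip3l and Ndrg1 were named only. Where a gene had several RefSeq starts, the one nearest the gene start in GENCODE M21 was taken. Whether that start is used in these cells was not tested. Some windows, among them those of Slc16a3, Ldha, Hif1a, Gapdh and Ankrd37, lie inside the gene as annotated in GENCODE M21. ACGTG on either strand was in 14 of the 29 (48.3%), against 21.7% of 9341 genes of the table and 16.6% of 32817 RefSeq windows. GCGTG was in 14 of the 29 (48.3%), against 46.7% of the genes of the table. Either core was in 22 of the 29 (75.9%), against 57.6% of the genes of the table. CACGTG, which overlaps ACGTG by construction and is an E-box read by MYC, MAX and MXI1, was in 5 (17.2%), against 8.33%. CAGGTG was in 2 (6.9%), those of Bnip3 and Egln1, against 15% of the genes of the table. The median GC content was 62.8% in the 29 windows and 60% in those of the table. The part of base composition in these motif shares was not tested.

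Other genes around these pathways were counted from lists as background to the set. Of 36 tested genes listed as hypoxia targets and not members, 14 fell (38.9%) and 4 rose (11.1%) in mimetic against deficient cells. Their median log2 fold change was -0.16, and 14.9% of all tested genes fell and 12.6% rose. Whether each listed gene responds to hypoxia in these cells was not tested. Bhlhe40, a repressor of transcription induced by hypoxia, was at 79.3 ± 2.7 CPM in mimetic and 144 ± 4.7 in deficient cells (1.82-fold lower, adjusted p = 1.23e-10). Ddit4, an inhibitor of mTOR signalling, was at 30.5 ± 0.78 CPM in mimetic and 53.4 ± 1.7 in deficient cells (1.75-fold lower, adjusted p = 1.88e-08). Selenbp1, a selenium-binding protein, went the other way, at 6.58 ± 0.61 CPM in mimetic and 1.91 ± 0.35 in deficient cells (3.44-fold higher, adjusted p = 2.14e-08).

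In the same comparison 7 of 21 tested other glycolysis isozymes and helpers fell (33.3%) and 2 rose (9.52%), with a median of -0.09. The brain-type aldolase Aldoc was at 10.7 ± 1.4 CPM in mimetic and 23.6 ± 1.6 in deficient cells (2.19-fold lower, adjusted p = 1.39e-08). Pgm2, a sugar phosphomutase, was at 25.8 ± 2.6 CPM in mimetic and 41.4 ± 2 in deficient cells (1.6-fold lower, adjusted p = 7.63e-07), and Tigar, a fructose bisphosphatase, at 30.6 ± 1.8 and 41.1 ± 3.2 CPM in mimetic and deficient cells (1.34-fold lower, adjusted p = 0.000268).

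The remaining lists were counted in mimetic against deficient cells too, where 14.9% of all tested genes were lower and 12.6% higher. The shares called were near or below these in the lists other than hypoxia targets and glycolysis isozymes. The exception was that 22.2% of the 9 pentose phosphate genes were lower, which is 2 genes. Of 14 other HIF regulators 2 fell (14.3%) and 1 rose (7.14%): Vhl, which marks HIF for destruction, fell 1.23-fold (adjusted p = 0.00412), Myc fell 1.16-fold (adjusted p = 0.0195) and Rbx1, a ubiquitin ligase subunit, rose 1.1-fold (adjusted p = 0.0266). The Myc call was lost without mimetic replicate 1 (adjusted p = 0.108), mimetic replicate 2 (adjusted p = 0.0727) or deficient replicate 3 (adjusted p = 0.141). The Rbx1 call was lost without mimetic replicate 1 or 3 or deficient replicate 1 or 3 (adjusted p = 0.0539 to 0.105).

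Of 26 genes of pyruvate dehydrogenase and the citrate cycle 3 rose (11.5%) and 2 fell (7.69%), with a median of 0.01. The named ones serve the phosphatases that oppose Pdk1: Pdp1 and Pdpr rose 1.29-fold and 1.41-fold (adjusted p = 0.00016 and 0.000219), and Pdp2 fell 1.26-fold (adjusted p = 0.00142). Of 9 pentose phosphate genes 2 fell, Rpia by 1.22-fold (adjusted p = 0.00572) and G6pdx by 1.09-fold (adjusted p = 0.0386), and none (0) rose. The G6pdx call was lost without mimetic replicate 1 or 2 or deficient replicate 2 or 3 (adjusted p = 0.0608 to 0.148) with library size scaling (adjusted p = 0.0966) and when only the 2 lines were fitted (adjusted p = 0.0617). Of 9 genes of gluconeogenesis and glycogen only Pcx, the pyruvate carboxylase, passed, at 7.65 ± 0.61 CPM in mimetic and 6.06 ± 0.61 in deficient cells (adjusted p = 0.0369), a call lost without mimetic replicate 1 or 2 or deficient replicate 1 or 2 (adjusted p = 0.0551 to 0.163), with limma-voom (adjusted p = 0.0691) and when only the 2 lines were fitted (adjusted p = 0.0711).

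In mimetic against WT cells, 5 of the 9 pentose phosphate genes (55.6%) were lower and none (0) higher. Of the 26 citrate cycle genes 11 (42.3%) were lower and 5 (19.2%) higher. Of the 36 hypoxia targets that are not members 9 (25%) were lower and 15 (41.7%) higher. Over all tested genes 21.8% were lower and 23.1% higher in that comparison. Against vector, 17 of the 36 genes listed as hypoxia targets and not members (47.2%) were higher and 9 (25%) lower in mimetic cells. Of all tested genes 28.6% were higher and 30.9% lower. In deficient cells 19 of the 36 (52.8%) were higher and 5 (13.9%) lower, where 28.4% of all were higher and 29.8% lower. In WT cells 14 of the 36 (38.9%) were higher and 11 (30.6%) lower, near the 31% and 33.6% of all genes. Of the citrate cycle list against vector, 3 of 26 (11.5%) were higher and 13 (50%) lower in mimetic cells and 4 (15.4%) higher and 14 (53.8%) lower in deficient cells. In WT cells 7 (26.9%) were higher and 9 (34.6%) lower, near the shares over all genes. Of the 21 other glycolysis isozymes and helpers, 8 (38.1%) were higher and 5 (23.8%) lower in mimetic against vector cells. In deficient cells 8 (38.1%) of these were higher and 2 (9.52%) lower, and in WT cells 8 (38.1%) higher and 5 (23.8%) lower.

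Overlapping annotation limits some of these values, since the counting strand is not given in the sources used here. A gene on the opposite strand overlaps 16 of the 31 genes and a gene on the same strand 7 of them.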

How the data were processed

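RNA of 12 libraries, 3 for each of 4 lines of 393P cells, was measured by 3′ tag sequencing per the labels' protocols. The authors deposited a table of raw counts per gene, with no normalisation. Alignment by STAR to mm10 is recorded, per the submitters' processing notes. Versions, counting tool and gene models are not stated in those sources. The smallest count in the table is 1, so genes with 0 counts in a library are not analysed here. Library totals ran from 24.4 to 39 M.

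Counts were fitted with edgeR 4.0.16 in R 4.3.3: filterByExpr removed 181 genes and left 12027, TMM factors scaled the libraries, and a quasi-likelihood fit with 1 term per line used all 12. Benjamini-Hochberg adjustment ran over all tested genes of each of 6 comparisons, two-sided, with a threshold of 0.05. The standard error is the log2 fold change divided by the square root of its F statistic. CPM use the TMM-normalised library size. The procedure was tested on simulated counts in which few genes were changed, and only in mimetic libraries. Scaling under changes as wide as those called here was thus not tested by it. Alternatives were RLE size factors, library size only, DESeq2 1.42.0, limma-voom (limma 3.58.1), no filter, at least 5 CPM in 3 libraries, a replicate block, no mitochondrially encoded genes, fits of only the 2 lines compared, and leaving out each library.

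The set and every list used beside it were chosen with earlier results of these data known, so the lower levels of the set in mimetic against deficient cells are not independent support for a pattern. Each of the 31 genes is reported. Genes that passed in mimetic against deficient cells with a log2 fold change of at least 0.5 in any comparison, 12 in all, are given with every library's value; Slc16a1, Pfkm, Tpi1, Gapdh, Ldha and Hif1a were added after their values were seen. Each other list names up to 3 genes of smallest adjusted p. Positions follow GENCODE M21 (GRCm38), in which 12195 of 12208 IDs were found, and windows before starts come from RefSeq (GRCm38.p6).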

Additional observations from a re-analysis of the deposited data

How the results depend on the processing

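No value of the 31 genes changed sign with its call under the alternatives run. Outside the fits that leave out a library, 1638 of 1668 values kept their side of the threshold, 12 lost a call and 18 gained one; leaving out a library kept 1056 of 1116, lost 47 and gained 13. The number of genes higher in mimetic against deficient cells was 1, and 2 with RLE size factors, library size only, DESeq2 or a replicate block, the addition being Mxi1; leaving out a library gave 1 to 2. For mimetic against WT it was 7, and 4 to 6 when a library was left out, in fits with fewer samples. Libraries of the same replicate number shared little: of 18 same-number pairs of deviations 3 correlated above 0.1 (range -0.12 to 0.25). In mimetic with deficient libraries the values were 0.13, 0.03 and 0.25 for replicates 1, 2 and 3. With 3 libraries per line these correlations cannot settle whether the numbers mark a pairing. With the replicate block Mxi1 passed in mimetic against deficient cells (adjusted p = 0.0361) and Gapdh in deficient against WT cells (adjusted p = 0.0376), and no call of the 31 genes was lost. The lists beside the set were run under the same alternatives after seeing the data, and in mimetic against deficient cells only counts of 0 to 3 genes moved by over 1.5 times. Genes under about 10 CPM, such as Ankrd37 and Pfkfb3, have the widest errors.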
